A study of Mus musculus with 4 samples.

Results

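General capillary endothelial cells (gCap cells) were examined in mouse lungs 14 days after an intratracheal dose of 0.8 U/kg bleomycin, an agent that injures the lung and is followed by fibrosis. Cells were chosen by their UMI counts (unique molecular identifiers, each standing for 1 captured RNA molecule). A cell was selected on at least 1 UMI of *Cdh5* and at least 2 of *Gpihbp1*, and on 0 UMIs of *Ednrb*, *Ntrk2*, *Lrg1*, *Gja5*, *Prox1*, *Mki67*, *Ptprc*, *Epcam* and *Pdgfra*, after a filter of 200 to 7500 genes and at most 15% mitochondrial UMIs. This gate held 439 of the 30860 cells that passed the filter (1.42%), and 13.5% of the 3262 endothelial cells (ECs), taken as cells with *Cdh5* and without *Ptprc*, *Epcam* and *Pdgfra*.

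All 4 mice were young adults that received bleomycin, so no uninjured lung was compared. Of these, 2 were wild-type littermates (WT) and 2 were homozygous for a *Tubb3*-*Cre* knockin allele (*Tubb3*-/-), in which *Cre* sits in frame at the translation start of *Tubb3*, the gene of β-III tubulin, in the germ line and so in every cell. Each mouse gave a whole-cell library, depleted of red blood cells with TER-119, and a mural cell-enriched library, depleted with antibodies to CD31, CD45, EpCAM and TER-119 and sorted into MCAM+ PDGFRα- and MCAM- cells that were mixed 1:1, so that ECs in the latter are those that escaped CD31 depletion. *Xist*, which is expressed from the inactive X chromosome, was high in gCap cells of replicate 2 of both genotypes and near 0 in replicate 1, so sex was balanced between genotypes and cannot be told apart from the replicate number.

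The alveolus holds 2 kinds of capillary EC. gCap cells line most of the capillary network, carry GPIHBP1, the protein that holds lipoprotein lipase on the capillary wall, and act as the progenitors from which capillaries are rebuilt after injury. Aerocytes (aCap cells), which carry the endothelin receptor EDNRB and carbonic anhydrase 4, are large cells that lie against the gas exchange surface. After bleomycin some capillary ECs express *Ntrk2* and *Lrg1* and are called activated gCap cells. The gate above leaves these out, so it holds the gCap cells without a detected activation marker.

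The targeted gene and the added *Cre* sequence were inspected in each library first. Over all filtered cells, *Tubb3* had 19.7 and 8.58 UMIs for every 10000000 gene UMIs in whole-cell libraries from WT mice, compared with 2.75 and 3.35 from the *Tubb3*-/- pair. Mural cell-enriched libraries gave 53.6 and 37.0 for WT and 6.95 and 6.55 for *Tubb3*-/-, with no overlap between genotypes in either kind. The 3′ end that was sequenced lies outside the inserted *Cre*, so this level is not a direct readout of the allele. *Cre* had 4 UMIs in the series, all in libraries of *Tubb3*-/- mice. gCap cells held 0 *Tubb3* UMIs in each of the 8 libraries, which over their 2680863 UMIs allows a level of up to 1.12 CPM (the UMIs of a gene scaled to a common total of gene UMIs in the summed cells). *Tubb3* lies at chr8:123411424-123422015 (mm10).

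Whole-cell libraries held 63 and 140 gCap cells for WT against 30 and 41 for *Tubb3*-/- mice, and mural cell-enriched ones added 21 and 91 against 26 and 27. Summed per mouse, gCap cells gave 416067 and 1437020 UMIs in WT mice against 381176 and 446600 in *Tubb3*-/- mice, so WT 2 carried more than the other 3 mice together. The median depth of a gCap cell was 4761.5 and 5392 UMIs in WT mice against 6008.5 and 6762.5 in *Tubb3*-/- mice, below that of all ECs of the same mouse in every case (5983.5, 6357, 8385 and 8539.5). A gate on zero counts holds shallow cells more easily than deep ones, and the deeper *Tubb3*-/- libraries have to be read with this in view. Among gCap cells 2 were marked as likely doublets, and no barcode was shared between gCap cells of different libraries, although 59 barcodes were shared between the 2 pools.

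Most of the cells that the gate turned away carried an activation marker. Of 2907 cells with the required *Cdh5* and *Gpihbp1* UMIs, 58.8% had a UMI of *Lrg1*, a secreted glycoprotein that acts on TGF-β signalling in vessels, and 47.7% had one of *Ntrk2*, the receptor of brain-derived neurotrophic factor. *Lrg1* alone kept out 414 cells that met every other condition and *Ntrk2* alone kept out 254, against 59 for the leukocyte gene *Ptprc* and 52 for the aCap gene *Ednrb*. At the lower limit of *Gpihbp1*, 62 gCap cells had 2 UMIs and 57 had 3, while 89 cells that met all other conditions had 1 UMI and stayed outside.

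The label was checked with genes that the rule did not use. *Glp1r* (chr17:30901817-30940791), the receptor of glucagon-like peptide 1, was at 288 and 407 CPM in gCap cells of WT mice and 257 and 378 CPM in those of *Tubb3*-/- mice. In cells gated as aCap (at least 2 UMIs of *Ednrb*, without *Ntrk2*, *Lrg1* and *Gja5*) *Glp1r* was at 2.40, 23.8, 3.37 and 13.1 CPM in the same mice, which put gCap cells 17.1 to 120-fold higher. *Bmp6* (chr13:38345107-38500302), a BMP ligand that endothelial cells secrete to set iron balance, was at 690, 631, 477 and 511 CPM in gCap cells and 7.47 to 20.5-fold lower in aCap cells. Both markers were thus present in gCap cells of every mouse. After each cell was thinned to 2000 UMIs, 29.1% to 49.2% of gCap cells per mouse had a *Glp1r* UMI and 50.9% to 67.6% a *Bmp6* UMI. Among cells with 2 or more *Ptprc* UMIs, a leukocyte population that should lack both, at most 0.363% and 0.597% did. Of these leukocytes 0% had a *Cdh5* UMI and 0% a *Gpihbp1* UMI in any mouse, while 1.89% to 2.23% had a *Cldn5* UMI and 7.62% to 8.82% a *Calcrl* UMI. Yet 461 of the 2907 cells with the required *Cdh5* and *Gpihbp1* UMIs had a *Ptprc* UMI. The comparison is thus with leukocytes in which these 2 rule genes were not detected, and leukocytes that carry their RNA are not covered by it. The low *Glp1r* and *Bmp6* shares are therefore not a background for all leukocytes.

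Each of the 9 listed gCap markers outside the rule was higher in gCap than in aCap cells in all 4 mice, where 23.8% of the 7585 genes compared did so. *Kit*, the receptor of stem cell factor, was at 398 to 531 CPM in gCap cells and 20.9 to 40.4 CPM in aCap cells. *Plvap*, which forms the diaphragms of endothelial fenestrae and caveolae, was 9.38 to 20.7-fold higher, and *Cd93*, a transmembrane receptor of ECs, 9.31 to 45.7-fold higher in gCap cells. *Ptprb*, the phosphatase that restrains TIE2, and *Tek*, which encodes TIE2 itself, were 7.02 to 51.7-fold and 7.44 to 45.1-fold higher. *Sema3c*, a secreted semaphorin, was at 1669 to 2139 CPM in gCap cells and 290 to 622 CPM in aCap cells. No test was made of these differences, because the gates themselves were set on related genes.

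The 6 listed aCap markers went the other way in every mouse, where 19.1% of the genes compared did so. *Emp2*, a membrane protein, was at 91.3, 199, 149.5 and 94.0 CPM in gCap cells and 15 to 20.7-fold higher in aCap cells. *Car4* (carbonic anhydrase 4) was 5.77 to 14.4-fold, *Tbx2* (a T-box transcription factor) 11.6 to 30.7-fold and *Fibin* 70.2 to 234-fold higher in aCap cells. *Kdr*, the main receptor of VEGF-A, was at 181 to 241 CPM in gCap cells and at 1001 to 1855 CPM in aCap cells, 5.02 to 7.70-fold higher. *Igfbp7*, a secreted matrix protein, was 3.39 to 11-fold higher in aCap cells. The aCap gate also held more mural and fibroblast RNA. All 7 mural markers compared and 4 of 6 fibroblast markers were higher there in every mouse, with 0 lower in all mice. Their median log2 ratios of gCap over aCap cells were -3.56 and -1.87. The part of such RNA in the differences between these 2 gates was not tested.

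Immune recognition genes also differed between gCap and aCap cells. All 6 MHC class II genes compared were higher in gCap than in aCap cells of all 4 mice, where 23.8% of the 7585 genes compared did so. Among them was *H2-Ab1*, at 216, 267, 126 and 376 CPM against 33.6 to 67.3 CPM. Of 17 MHC class I genes, which present peptides to CD8 T cells, 16 were higher in gCap cells of all mice, and of 21 type I interferon-stimulated genes 18 were. *Ifitm3*, an antiviral membrane protein, was at 2598 to 3323 CPM in gCap cells and 665 to 1144 CPM in aCap cells. Of 15 interferon-gamma-induced genes 12 were higher in all mice, the GTPase *Iigp1* being at 173 to 495 CPM against 43.8 to 127 CPM. Against activated gCap cells, 0 of 7 MHC class II genes were higher in gCap cells of all mice and 6 were lower. Of 16 interferon-gamma-induced genes 5 were higher there and 3 lower. Type I genes gave 10 higher and 1 lower of 22, and MHC class I genes 8 and 1 of 17. Over all genes compared with activated cells 17.8% were higher and 10.9% lower.

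gCap cells were next set beside activated gCap cells. *Glp1r* was at 262 to 296 CPM and *Kit* at 301 to 501 CPM in the activated gate (at least 2 UMIs of *Ntrk2* and *Lrg1* together, with no condition on *Gpihbp1*), ranges that overlap those of gCap cells. Of 13 Notch genes compared, 5 were higher in gCap cells of all 4 mice and 0 lower. Of 19 BMP and TGF-beta genes 5 were higher (26.3%), 3 lower (15.8%) and 11 mixed, with a median log2 ratio of 0.05. Over all genes compared 17.8% were higher and 10.9% lower, with a median of 0.07, so the BMP and TGF-beta list as a whole showed no clear shift. The Notch ligand *Dll4* was at 115, 127, 102 and 89.6 CPM in gCap cells and 43.4 to 48.2 CPM in activated cells. Members of these 2 lists that were higher in gCap cells included *Smad6*, the intracellular inhibitor of BMP signalling (1.78 to 2.53-fold). *Hey1*, a Notch target (1.27 to 2.46-fold), and *Tmem100*, an endothelial BMP9 target (1.56 to 1.74-fold), were others. The 3 BMP and TGF-beta genes that were lower in all mice are not named, so *Smad6* and *Tmem100* do not stand for their list. *Hpgd*, which degrades prostaglandins, was at 2608 to 3019 CPM in gCap cells and 1676 to 2207 CPM in activated cells.

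Of 14 leukocyte adhesion and chemokine genes compared with activated gCap cells, 7 were lower in gCap cells of all 4 mice and 3 higher. *Vcam1*, an adhesion molecule for leukocytes, was at 12.0 to 23.6 CPM in gCap cells and at 63.1 to 258 CPM in activated cells. *Ptgs2*, which encodes cyclooxygenase 2, was 3.85 to 18.6-fold lower, and *Vwf*, the gene of von Willebrand factor, 1.39 to 3.99-fold lower. Of 24 immediate-early and heat shock genes 17 were lower in gCap cells in all 4 mice and 0 were higher, where 10.9% of the 6968 genes compared were lower and 17.8% higher. *Ier3* was at 992 to 1608 CPM in gCap cells and 1772 to 2859 CPM in activated cells. All 6 venous genes compared were lower in gCap cells of every mouse (median log2 ratio -2.84), and *Ackr1*, the venous chemokine receptor, had 0 UMIs in gCap cells of 3 mice. By these markers the activated gate, with no condition on *Gpihbp1*, may also hold venous ECs. Their part in the differences given here was not tested. Because the gCap gate requires *Gpihbp1* and 0 UMIs of *Ntrk2* and *Lrg1*, genes that vary with these in a cell differ between the gates by the choice of cells.

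**Figure D1:**
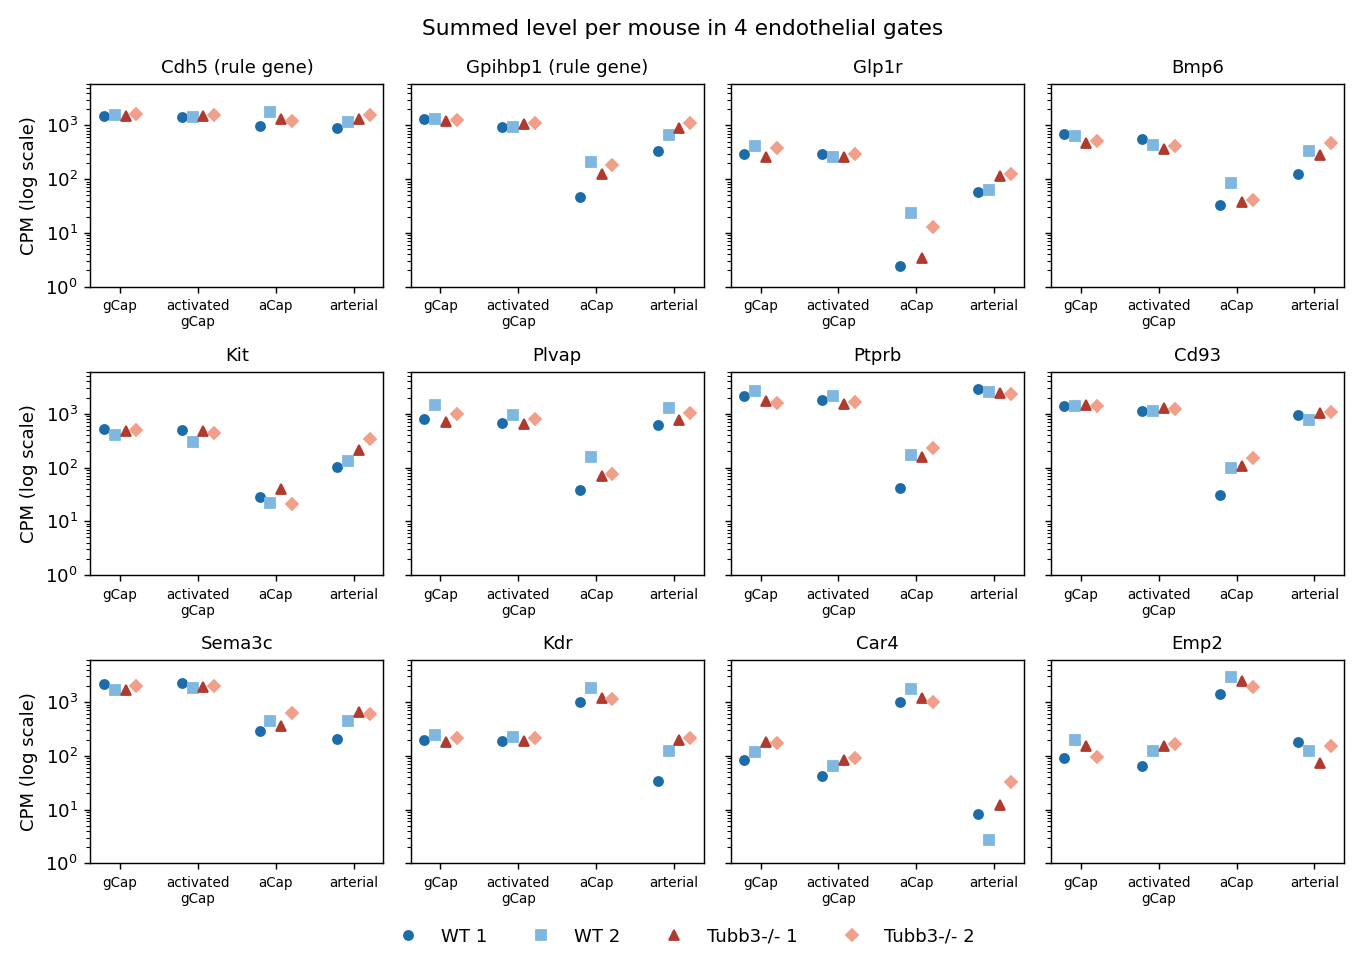
The CPM of 12 genes (log scale) is plotted for 4 endothelial gates, with 1 point per mouse and cells of both libraries summed. *Glp1r*, *Bmp6*, *Kit*, *Plvap*, *Ptprb* and *Cd93* lie lower in aCap cells than in gCap cells of each mouse, *Kdr*, *Car4* and *Emp2* lie higher there, and gCap and activated gCap cells lie close together in most panels. *Cdh5* and *Gpihbp1* were used to choose the cells.

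Whether *Tubb3*-/- lungs hold a different share of gCap cells was asked in the whole-cell libraries, where ECs were not depleted. gCap cells made up 16.8% (95% exact binomial interval 13.2 to 21.0) and 28.1% (24.2 to 32.3) of ECs in WT mice. In *Tubb3*-/- mice they made up 4.24% (2.88 to 6.0) and 6.10% (4.41 to 8.19). The shares of the genotypes did not overlap, with means of 22.5% ± 8.0 and 5.17% ± 1.31 (SD, n = 2 mice each), 4.34-fold lower in *Tubb3*-/- mice. An exact two-sided permutation test gave p = 0.333, which is the smallest that 2 against 2 mice allow, so the design cannot pass a threshold of 0.05. The intervals cover counting error only.

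This lower share rested on the 2 activation markers in the rule. When the conditions on *Ntrk2* and *Lrg1* were dropped, a rule tried once values were known, the cells that met the other conditions made up 50.4% and 52.4% of ECs in WT mice against 51.6% and 54.8% in *Tubb3*-/- mice, a difference of 1.79 percentage points in the other direction (exact permutation p = 0.667). Among whole-cell library cells with the required *Cdh5* and *Gpihbp1*, 51.7% and 30.9% had an *Lrg1* UMI in WT mice against 77.5% and 72.1% in *Tubb3*-/- mice. *Ntrk2* was found in 42.6% and 25.3% against 65.9% and 57.8%. The activated gCap gate held 31.5% and 15.1% of ECs in WT mice against 49.8% and 45.4% in *Tubb3*-/- mice, and the aCap gate 6.93% and 6.83% against 2.97% and 2.38%.

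The difference was smaller at equal depth. With every cell thinned to 2000 UMIs before the gate, gCap cells were 20.5% and 32.8% of ECs in WT mice against 10.6% and 15.6% in *Tubb3*-/- mice, still without overlap and 2.03-fold lower in *Tubb3*-/- mice. As a share of all cells of the library, gCap cells were 1.85% and 4.49% in WT mice against 0.718% and 1.19% in *Tubb3*-/- mice (exact permutation p = 0.333). After thinning these shares were 2.30% and 5.72% against 1.96% and 3.31%, and the genotypes overlapped (exact permutation p = 0.667). Without WT 2, the mouse with the most gCap cells, the difference in the share of all library cells before thinning fell from 2.22 to 0.898 percentage points. When the *Ntrk2* and *Lrg1* conditions were dropped, the cells made up 5.55% and 8.37% of the library in WT mice. In *Tubb3*-/- mice they made up 8.73% and 10.6% (exact permutation p = 0.333), so this wider pool was not smaller there. In these libraries fewer cells without the 2 activation markers and more detection of *Ntrk2* and *Lrg1* in the same cells cannot be told apart.

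**Figure D2:**
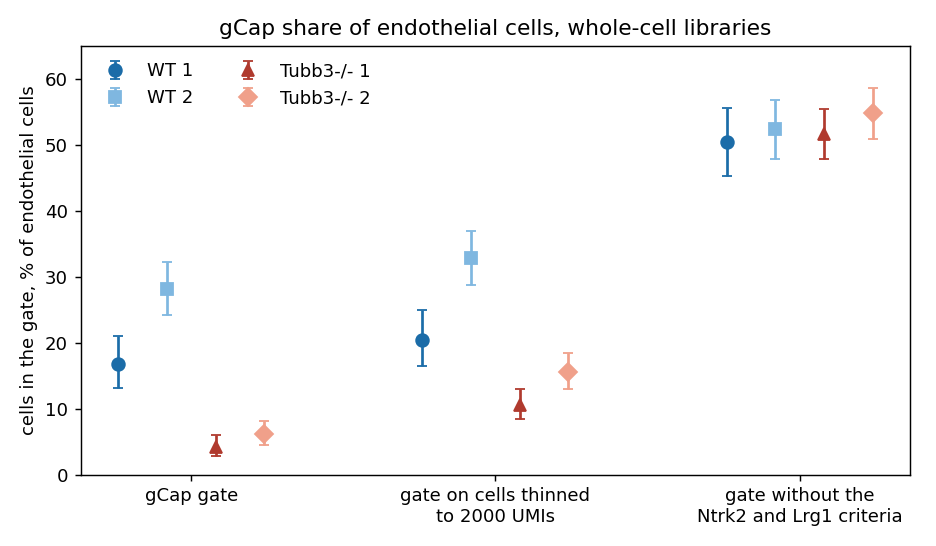
The share of endothelial cells in the gate (percent) is plotted for each mouse's whole-cell library under 3 rules, with bars for the 95% exact binomial interval. The *Tubb3*-/- points lie below both WT points under the gate (4.24% and 6.10% against 16.8% and 28.1%) and after thinning to 2000 UMIs, and all 4 points lie between 50.4% and 54.8% once the *Ntrk2* and *Lrg1* conditions are dropped.

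To ask whether the genotype changed what gCap cells express, UMIs were summed per mouse and tested with the quasi-likelihood test of edgeR over 6539 genes, leaving out the 11 genes of the rule. No gene passed an adjusted p (Benjamini-Hochberg) of 0.05 (0% called). At an unadjusted p under 0.05 there were 446 genes, 199 higher (3.04%) and 247 lower (3.78%) in *Tubb3*-/- mice, and DESeq2 also called 0, with 77 at an unadjusted p under 0.05. Without overlap between genotypes, 1324 genes (20.2%) were higher and 1120 (17.1%) lower in the *Tubb3*-/- pair. Leaving out 1 mouse at a time gave 105 called genes without WT 1, 12 without WT 2, 21 without *Tubb3*-/- 1 and 34 without *Tubb3*-/- 2, fits in which the lone mouse of a genotype is assumed to vary like the pair of the other. The values that follow describe genes that were not called, and the median log2 fold change over all genes was -0.01.

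The smallest p among genes higher in *Tubb3*-/- mice belonged to *Depp1* (chr6:116650609-116652794), a target of FOXO transcription factors. Its level was 48.1 and 39.0 CPM in gCap cells of WT mice and 123 and 132 CPM in those of *Tubb3*-/- mice, a log2 fold change of 1.59 ± 0.25 (SE, edgeR, adjusted p = 0.070). The UMIs were spread unevenly, with 14 of the 20 in WT 1 from 1 cell and 18 of the 59 in *Tubb3*-/- 2 from another. Without the top cell of each mouse the levels were 14.7 and 33.5 CPM against 98.4 and 92.6 CPM, and the groups still did not overlap.

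*Tubb2b*, which encodes another β-tubulin and was listed among the activated gCap markers, was at 40.9 and 28.5 CPM in WT mice against 68.2 and 107 CPM in *Tubb3*-/- mice (log2 fold change 1.43 ± 0.32, adjusted p = 0.30). *Tubb5*, the main β-tubulin of many cells, was at 303 and 294 CPM against 386 and 408 CPM (0.40 ± 0.18, adjusted p = 0.72). Of the 14 tubulins listed, 6 were tested, 2 were higher and 0 lower at an unadjusted p under 0.05, and their median log2 fold change was 0.16. *Rflnb*, a regulator of filamin, was at 26.4 and 25.1 CPM against 108 and 47.0 CPM (1.55 ± 0.38). *Atp13a3*, a polyamine transporter, was at 21.6 and 15.3 CPM against 121 and 33.6 CPM (2.11 ± 0.49).

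*Prnd*, which encodes the prion-like protein doppel of growing vessels, had the largest difference of this set, at 16.8 and 2.09 CPM in WT mice against 144 and 31.3 CPM in *Tubb3*-/- mice (log2 fold change 3.84 ± 0.74, adjusted p = 0.14). It was carried by few cells. Of its 79 UMIs, found in 12 of the 439 cells, 39 came from 1 cell of *Tubb3*-/- 1. Without the *Ntrk2* and *Lrg1* conditions *Prnd* was at 0.82 and *Atp13a3* at 0.42, and with the gate on thinned cells they were at 2.44 and 1.23.

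Among genes lower in *Tubb3*-/- mice, 2 of the 5 with the smallest p are annotated as antisense RNAs. *Gm49417* (chr14:70205324-70255287) was at 120 and 102 CPM in WT mice against 36.7 and 35.8 CPM in *Tubb3*-/- mice (log2 fold change -1.60 ± 0.28, adjusted p = 0.081). *9530026P05Rik* (chr6:92940329-93272979) was at 163 and 334 CPM against 81.3 and 85.1 CPM (-1.67 ± 0.29, adjusted p = 0.081). Whether the counting used strand is not given in the sources used here, so reads of their sense partners could not be told apart. In the whole-cell libraries alone *9530026P05Rik* was the single gene called (log2 fold change -2.68, adjusted p = 0.029). It was also higher in the mural cell-enriched libraries (0.92 ± 0.24, adjusted p = 0.030), where the 4 mice were at 187, 436, 162.5 and 170 CPM.

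*Nup210l*, a homolog of the nuclear pore protein NUP210, was at 84.1 and 130 CPM in WT and 42.0 and 38.1 CPM in *Tubb3*-/- mice (-1.52 ± 0.30). *Slc16a9*, a member of the monocarboxylate transporter family, was at 81.7 and 127 CPM against 49.8 and 29.1 CPM (-1.52 ± 0.32). The complement gene *C3* was at 67.3 and 150 CPM against 39.4 and 40.3 CPM (-1.59 ± 0.35, adjusted p = 0.30), but 144 of the 215 UMIs of WT 2 came from 1 cell. Without the top cell of each mouse *C3* was at 47.0 and 50.3 CPM against 31.8 and 36.4 CPM.

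**Figure D3:**
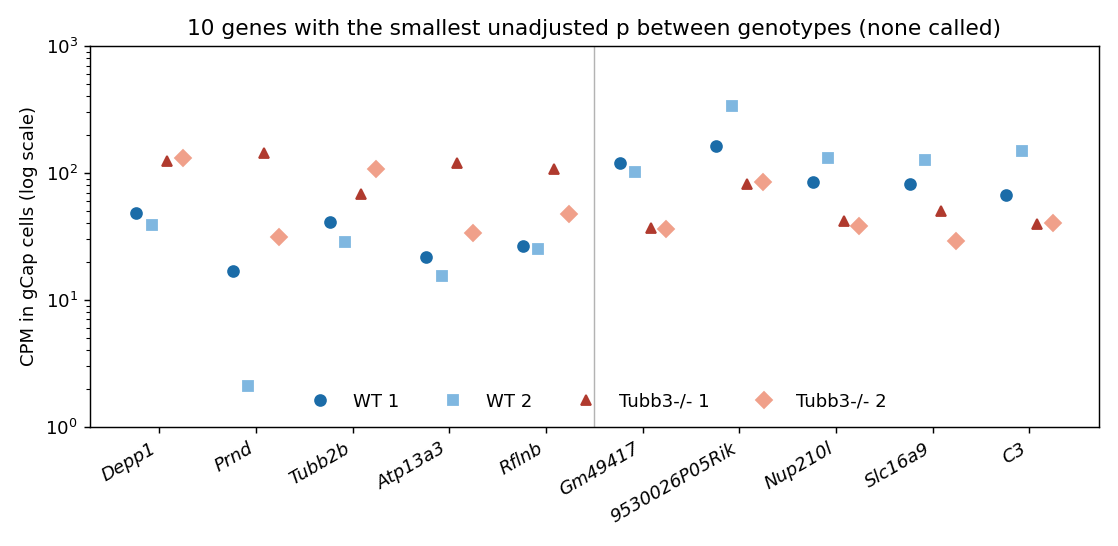
The CPM in gCap cells (log scale) is plotted per mouse for the 10 genes with the smallest unadjusted p, 5 higher in *Tubb3*-/- mice to the left of the line and 5 lower to the right, none of them called. *Depp1* and *Gm49417* show the 2 mice of a genotype close together, whereas *Prnd* and *Atp13a3* differ widely between the *Tubb3*-/- mice.

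The members' own markers were compared next. Of the 9 gCap markers outside the rule, 0 were called, 3 were lower and 0 higher at an unadjusted p under 0.05, and their median log2 fold change was -0.17. *Cadm1*, a cell adhesion molecule, was at 519 and 457 CPM in gCap cells of WT mice and 289 and 291 CPM in those of *Tubb3*-/- mice (-0.76 ± 0.18, adjusted p = 0.41). *Ptprb* was at 2108 and 2667 CPM against 1705 and 1614 CPM (-0.54 ± 0.15, adjusted p = 0.51), and *Bmp6* at 690 and 631 CPM against 477 and 511 CPM (-0.43 ± 0.17, adjusted p = 0.72). These 3 of the 9 markers had no overlap between genotypes, where 17.1% of all genes tested were lower and 20.2% higher without overlap. *Glp1r* overlapped (-0.17 ± 0.22).

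Among the 18 tested genes of BMP and TGF-beta signalling, which keeps capillaries quiescent, 14 lay lower in *Tubb3*-/- mice (median log2 fold change -0.22) and 4 of them at an unadjusted p under 0.05. Besides *Bmp6* these were the coreceptor *Eng* (endoglin), at 798 and 1098 CPM against 742 and 672 CPM, and the inhibitors *Smad6*, at 553 and 563 CPM against 331 and 504 CPM, and *Smad7*, at 421 and 388 CPM against 331 and 273 CPM. Their log2 fold changes were -0.45 ± 0.18, -0.43 ± 0.20 and -0.44 ± 0.19. *Smad7* was at -0.08 without the *Ntrk2* and *Lrg1* conditions, while *Bmp6* was at -0.49, *Eng* at -0.41 and *Smad6* at -0.67. *Tmem100* overlapped (-0.11 ± 0.16). Of 13 Notch genes, *Dll1* (-0.98 ± 0.29) and the coactivator *Maml1* (-0.99 ± 0.44) were lower and the ligand *Jag2* (0.83 ± 0.34) higher at an unadjusted p under 0.05, with *Notch1* at -0.20 ± 0.20 and a median of -0.34. The arterial ligand *Efnb2* was at -0.33 ± 0.19.

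Basement membrane and matrix genes had a median of 0.38 over 18 tested genes, with 12 higher and 6 lower and with 4 against 0 at an unadjusted p under 0.05. *Sparc*, a collagen-binding matrix protein, was at 1214 and 889 CPM in WT and 1763 and 1608 CPM in *Tubb3*-/- mice (0.67 ± 0.17, adjusted p = 0.44). The collagen IV chains *Col4a1*, at 1283 and 716 CPM against 1328 and 1496 CPM (0.50 ± 0.21), and *Col4a2*, at 747 and 463 CPM against 955 and 876 CPM (0.60 ± 0.20), form the capillary basement membrane with laminins such as *Lamc1* (0.63 ± 0.27). *Lamc1* was at 0.11 without the *Ntrk2* and *Lrg1* conditions, while *Sparc* was at 0.66, *Col4a1* at 0.62 and *Col4a2* at 0.66. *Mgp*, an inhibitor of calcification and of BMPs, was at 0.03 ± 0.14, but its value depended on the gate. With a *Gpihbp1* minimum of 1 UMI, *Mgp* was the single gene called (log2 fold change 1.73, adjusted p = 0.0050), and with the gate on thinned cells it was at -0.77.

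The 16 tested genes of glycolysis and hypoxia had a median of 0.18, with *Pkm* (0.56 ± 0.21), *Pfkl* (0.99 ± 0.40) and *Ankrd37* (1.83 ± 0.62) higher at an unadjusted p under 0.05 and 0 lower. *Ankrd37* was uneven between the *Tubb3*-/- mice. It had a UMI in 3.75% and 2.22% of thinned gCap cells in WT mice against 10.9% and 1.59% in *Tubb3*-/- mice. Its log2 fold change ran from 0.50 to 3.09 over the settings tried. *Epas1*, the gene of HIF-2α, was at 2714 and 3027 CPM in WT and 2561 and 2472 CPM in *Tubb3*-/- mice (-0.21 ± 0.13). The aCap markers *Car4*, at 84.1 and 120 CPM against 184 and 175 CPM (0.72 ± 0.21), and *Prx*, at 250 and 232 CPM against 352 and 334 CPM (0.50 ± 0.18), gave the aCap list a median of 0.72 over 5 tested genes, of which *Emp2* lay lower with overlap (-0.40 ± 0.30). Without the *Ntrk2* and *Lrg1* conditions *Car4* was at 0.26 and *Prx* at 0.12. *Fxyd5*, a listed activated gCap marker, was at 0.41 ± 0.21.

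Among genes of angiogenic signalling the netrin receptor *Unc5b* (1.06 ± 0.35), the semaphorin receptor *Plxnd1* (0.63 ± 0.26) and the ligands *Pdgfb* (0.61 ± 0.24) and *Pdgfd* (0.63 ± 0.29) were higher and *Ptprb* lower at an unadjusted p under 0.05, for a median of 0.04 over 19 genes. *Unc5b* was at 0.20, *Plxnd1* at 0.06 and *Pdgfd* at -0.04 without the *Ntrk2* and *Lrg1* conditions, while *Pdgfb* was at 0.57 and *Ptprb* at -0.42. Genes of vascular tone were split. *Nos3*, which makes nitric oxide (0.67 ± 0.30), and the caveolar gene *Cavin1* (0.48 ± 0.19) were higher, and the endothelin-converting enzyme *Ece1* (-0.58 ± 0.17), the prostacyclin synthase *Ptgis* (-1.0 ± 0.42) and the natriuretic peptide clearance receptor *Npr3* (-0.81 ± 0.29) lower. *Npr3* was at 334 and 728 CPM against 236 and 390 CPM, with overlap, and at -0.10 without WT 2. Of 10 haemostasis genes, *Anxa2*, which binds plasminogen activator, was higher (0.51 ± 0.19), while *Thbd* (thrombomodulin) was at 0.14 ± 0.16 and *Vwf* at 0.27 ± 0.25.

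Of 23 tested immediate-early and heat shock genes 19 were lower (median -0.20), with *Btg2* (-0.65 ± 0.19), *Atf3* (-0.75 ± 0.24), *Ier3* (-0.38 ± 0.17) and *Fosb* (-0.55 ± 0.25) at an unadjusted p under 0.05 and *Hspa8* at 0.15 ± 0.15. Many of these genes were highest in WT 2, as *Atf3* was, at 377 and 704 CPM in WT and 328 and 336 CPM in *Tubb3*-/- mice. *Icam1*, a leukocyte adhesion molecule, was at 216 and 436 CPM against 186 and 217 CPM (-0.76 ± 0.26), and the NF-κB inhibitor *Tnfaip3* at 55.3 and 65.4 CPM against 34.1 and 29.1 CPM (-0.99 ± 0.33). *Fosb* was at -0.06, *Ier3* at -0.12, *Tnfaip3* at -0.23 and *Atf3* at -0.30 without the *Ntrk2* and *Lrg1* conditions. *Btg2* was then at -0.38 and *Icam1* at -0.70. The leukocyte adhesion and chemokine list as a whole was split, with 7 lower and 5 higher of 12 tested. *Cd34* was at 276 and 133 CPM against 296 and 331 CPM (0.69 ± 0.27), or 0.17 without WT 2, and *Cxcl12* overlapped (0.06 ± 0.20). Of 22 p53 targets and cell cycle inhibitors 13 were tested (median -0.24), *Sesn1* (-0.87 ± 0.35) and *Btg2* being lower.

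Interferon-induced genes had medians of -0.19 (type I, 22 tested) and -0.18 (gamma, 13 tested). *Iigp1* was at 495 and 307 CPM in WT and 173 and 246 CPM in *Tubb3*-/- mice (-0.92 ± 0.24, adjusted p = 0.51), the transcription factor *Irf1* at 260 and 509 CPM against 275 and 242 CPM (-0.63 ± 0.26), and *Gbp6* at -1.03 ± 0.37. In the type I list *Parp14* was lower (-0.42 ± 0.19) and *Usp18* higher (0.76 ± 0.32), and *Ifitm3* was at -0.07 ± 0.14. MHC class I had a median of -0.09, with *B2m* at 0.09 ± 0.15 and *H2-Q4*, which has near-identical copies, at -0.52 ± 0.23.

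All 6 MHC class II genes tested lay higher (median 0.18), but the highest levels were those of 1 mouse. *Cd74*, the invariant chain, was at 320 and 261 CPM in WT mice, 171 CPM in *Tubb3*-/- 1 and 1050 CPM in *Tubb3*-/- 2 (1.08 ± 0.47, adjusted p = 0.72). Its 469 UMIs in *Tubb3*-/- 2 came from 54 of 68 cells, with at most 43 from any cell. The fold change was -0.75 without that mouse. *Cd74* was also at 1115 CPM in activated gCap cells of *Tubb3*-/- 2 and at 400 to 680 CPM in those of the other mice.

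A further 6 lists had medians near 0, namely lipid handling (-0.02, *Cd36* at -0.14 ± 0.14), endothelial transcription factors (-0.10), junctions (0.04, with *Cldn5* at -0.11 ± 0.17 and *Arhgef12* at -0.41 ± 0.17), pan-endothelial genes (-0.10, *Calcrl* at 0.07 ± 0.12), cell cycle genes (0.16, with *Ccnd1* at 0.56 ± 0.20 and *Stmn1* at 0.30 ± 0.18) and survival receptors (-0.16, *Il6st* at -0.62 ± 0.19). *Il6st* was at -0.08 without the *Ntrk2* and *Lrg1* conditions, while *Arhgef12* was at -0.25 and *Ccnd1* at 0.45. *Tuba1a* was at 0.06 ± 0.17. Haemostasis genes had a median of 0.21, vascular tone -0.09 and leukocyte adhesion -0.14. Shorter lists gave 0.92 (2 activated gCap markers), -0.33 (3 arterial), 0.03 (2 venous), -0.40 (2 lymphatic), 0.17 (3 mural), -0.15 (5 fibroblast), -0.33 (3 immune) and 0.04 (4 epithelial), and 0 of 6 erythroid and platelet markers were tested. The lymphatic marker *Lyve1*, present in gCap cells of all mice, was at 413 and 987 CPM in WT and 441 and 517 CPM in *Tubb3*-/- mice (-0.59 ± 0.28).

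Markers of other lung cells were measured in the same sums. The summed level of 9 mural markers was 380 and 748 CPM in WT and 973 and 361 CPM in *Tubb3*-/- mice, that of 7 fibroblast markers 668 and 653 against 596 and 551 CPM, that of 7 immune markers 582 and 454 against 396 and 486 CPM, and that of 7 epithelial markers 1420 and 1145 against 1031 and 949 CPM. In each of these 4 lists 0 genes were without a UMI. *Scgb1a1*, the club cell secretory protein, was at 916 and 704 CPM in WT and 548 and 522 CPM in *Tubb3*-/- mice (-0.61 ± 0.18, adjusted p = 0.57) and had a UMI in 50.8% to 73.8% of thinned gCap cells and 74.2% to 79.5% of leukocytes, which do not make it. The collagen genes *Col3a1* (-0.13 ± 0.20) and *Dcn* (-0.72 ± 0.32), the leukocyte genes *Lyz2* (-0.14 ± 0.19) and *Tyrobp* (-0.90 ± 0.42) and the muscle actin *Acta2* (0.17 ± 0.35) are likewise genes of other cells. The part of such RNA in the genotype values above was not tested.

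The genotype difference in gCap cells was compared with that in the neighbouring gates by an interaction term. Against activated gCap cells 1 of 9631 genes was called (0.0104%), the haemoglobin gene *Hbb-bs*, with 454 genes at an unadjusted p under 0.05 and 0 called by DESeq2. *Hbb-bs* was at 33.6, 16.0, 18.4 and 11.2 CPM in gCap cells, and in activated gCap cells at 15.2, 15.8 and 19.3 CPM in 3 mice and 921 CPM in *Tubb3*-/- 1. Without 1 mouse the count was 60 (WT 1), 9 (WT 2), 3 (*Tubb3*-/- 1) or 12 (*Tubb3*-/- 2). Against aCap cells 0 of 7439 genes were called (0%), with 205 at an unadjusted p under 0.05 and 0 called by DESeq2, and 56 genes were called without WT 1 and 12 without WT 2.

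The same 4 mice gave gCap cells in both kinds of library, which allowed a comparison within mice. With the mouse as a block, edgeR called 195 of 5769 genes, 138 higher (2.39%) and 57 lower (0.988%) in the mural cell-enriched libraries. The count fell to 56 without WT 2 and to 125 without *Tubb3*-/- 2. *Pecam1*, the gene of CD31, the protein that the depletion targets, was at 1177 to 1310 CPM in gCap cells of whole-cell libraries and at 1132.5 to 1399.9 CPM in those of mural cell-enriched libraries (log2 fold change -0.03 ± 0.13, adjusted p = 0.95). Of the 9 gCap markers outside the rule 0 were called, with a median of -0.01, and of 13 pan-endothelial genes 0.

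Markers of the cells that filled each library were among the called genes. All 3 mural markers and all 5 fibroblast markers tested were higher in the mural cell-enriched libraries, and both immune markers tested and *Scgb1a1* were lower. The summed mural markers were at 88.5 to 154 CPM in gCap cells of whole-cell libraries and 884 to 2343 CPM in those of mural cell-enriched ones, and the fibroblast markers at 223 to 466 CPM and 1074 to 1396 CPM. Immune markers were at 578 to 732 CPM and 83.0 to 135 CPM. Over all cells of the libraries the same sums were 1011 to 1698 CPM against 5770 to 8567 CPM (mural), 3179 to 5580 CPM against 9089 to 13640 CPM (fibroblast), and 11037 to 12647 CPM against 588 to 1756 CPM (immune). Of the 138 genes called higher, 120 were also higher over all cells of the mural cell-enriched libraries, and 49 of the 57 called lower were lower there, whereas 44.4% of all tested genes were higher there. The kind of library, the depletion, the sort and the 10x run coincide and cannot be told apart.

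The called genes with the largest rise at 20 CPM or more were *Fabp4*, the mesothelial gene *Msln*, *Itih4*, *Igfbp5*, *Efna5*, *Igfbp6*, *Gpc3* and the smooth muscle gene *Cnn1*, with log2 fold changes of 3.95 ± 0.52 to 7.48 ± 0.30. *Msln* was at 0 to 3.14 CPM in gCap cells of whole-cell libraries and 32.7 to 129 CPM in those of mural cell-enriched libraries. *Igfbp5* rested on few cells, since 251 of its 289 UMIs in WT 2 came from 1 cell. The largest fall was that of *Chil3* and *Ccl6*, which macrophages express, at 81.4 to 141 CPM and 40.8 to 68.8 CPM in whole-cell libraries and 0 to 10.4 CPM and 0 to 6.77 CPM in the others. *Lyz2* (-2.28 ± 0.19), *Ctss* (-2.18 ± 0.53), *Il31ra* (-2.29 ± 0.33), *Gm48099* (-1.94 ± 0.39) and *Apln* (-2.34 ± 0.59) followed, and *Scgb1a1* was at 745 to 1164 CPM and 91.7 to 237 CPM (-2.79 ± 0.22).

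Some lists of genes that are not confined to other lung cells moved between library kinds as well. Of 5 MHC class II genes tested, which leukocytes also express, 3 were called lower in the mural cell-enriched libraries (median -0.75). Of 23 immediate-early and heat shock genes 5 were called lower and 1 higher (median -0.30). Over all genes tested 0.988% were called lower and 2.39% higher. The part of free RNA in these changes was not tested.

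**Figure D4:**
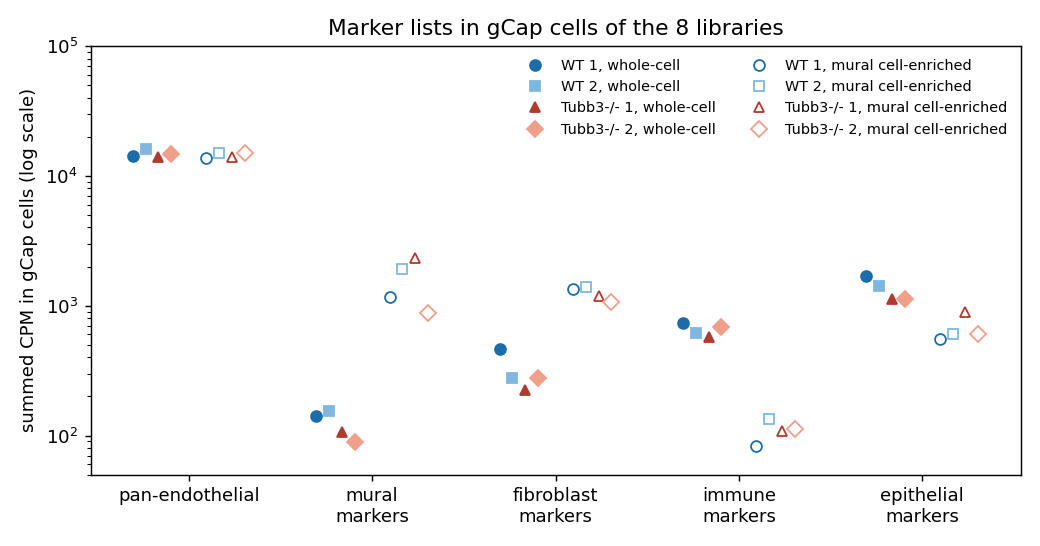
The summed CPM of 5 marker lists in gCap cells (log scale) is plotted for the 8 libraries, with filled points for whole-cell and open points for mural cell-enriched libraries. Pan-endothelial markers lie between 13802 and 15991 CPM in all libraries, mural and fibroblast markers are higher and immune markers lower in all 4 mural cell-enriched libraries.

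gCap cells also varied among themselves within a mouse. After thinning each cell to 2000 UMIs, the ratio of variance to mean over cells was taken for 2784 genes, and genes were ordered by the poorest rank that each had in any of the 4 mice. This ratio is a description, in which all genes share the depth and handling of the cells. The 15 leading genes held the nuclear RNA *Malat1*, the ribosomal transcript *Gm42418* and the mitochondrial genes *mt-Atp6*, *mt-Co1*, *mt-Co2* and *mt-Co3*. The others were *Mgp*, *Calcrl* (receptor of adrenomedullin), *Sema3c*, *Adgrl3* (an adhesion receptor), *Cxcl12* (the CXCR4 ligand), *Junb*, *Ier3*, *Tmem252* and *Hpgd*. *Cxcl12* was found in 45.3% to 58.2% of cells with a ratio of 3.51 to 6.71, and *Sema3c* in 81.8% to 86.2% of cells with a ratio of 3.57 to 4.33.

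A small set of gCap cells was marked by *Esm1* (chr13:113209659-113218098), which encodes endocan, a proteoglycan of the tip cells of growing vessels. Cells with at least 2 *Esm1* UMIs, a limit chosen after the values were seen, numbered 18 of 439 (4.10%), namely 3 and 10 in WT mice against 3 and 2 in *Tubb3*-/- mice, 11 of them from whole-cell libraries. They held 136 of the 153 *Esm1* UMIs of all gCap cells. *Esm1* was at 69.7, 41.1, 142 and 24.6 CPM in gCap cells of the 4 mice, 8.31 to 77.8-fold higher than in activated gCap cells.

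Other genes of growing vessels were high in some of these 18 cells. *Pgf* was found in 3 of them, *Apln*, *Col15a1* and *Vwa1* in 6 each, and *Prnd*, *Hspg2* and *Lamb1* in 7 each. Together the 18 cells held 74 of the 105 *Apln* UMIs, 60 of the 79 *Prnd* UMIs and 50 of the 55 UMIs of *Pgf* (placental growth factor). *Apln*, the ligand of the apelin receptor, was at 507 CPM in them and 12.2 CPM in the other 421 gCap cells. Matrix genes were high too, with *Col15a1* at 425 against 14.2 CPM, *Hspg2* (perlecan) at 254 against 17.0 CPM, *Lamb1* at 158 against 11.4 CPM, *Vwa1* at 247 against 7.5 CPM and *Igfbp7* at 3331 against 559 CPM. The transcription factors *Mecom* and *Meox1* were 8.26-fold and 20.0-fold higher.

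The same cells were lower in several genes that mark the other gCap cells. *Sema3c* was at 295 against 1889 CPM, 6.41-fold lower, *Bmp6* at 226 against 620 CPM, *Glp1r* at 178 against 373 CPM, *Lpl* at 110 against 325 CPM and *Cd74* at 95.9 against 406 CPM. *Gpihbp1* was 1.08-fold and *Plvap* 1.15-fold higher and *Cdh5* 1.16-fold lower. *Depp1* was 4.89-fold and *Unc5b* 5.41-fold higher in the 18 cells, which however held 40 of the 182 *Depp1* UMIs and 19 of the 80 *Unc5b* UMIs. These are sums over few cells of 4 mice and carry no test.

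**Figure D5:**
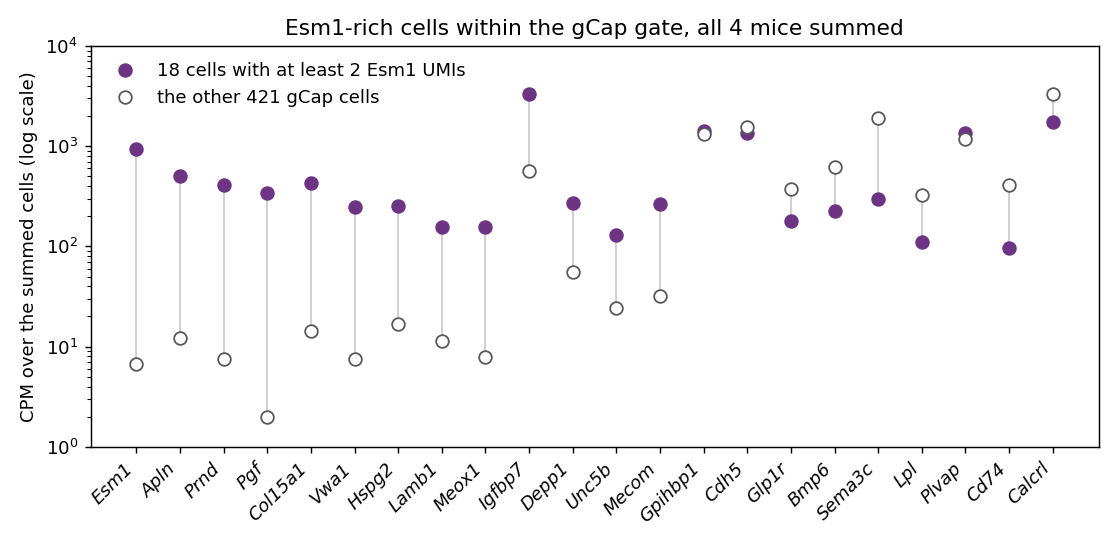
The CPM over the summed cells (log scale) is plotted for the 18 gCap cells with at least 2 *Esm1* UMIs (filled) and the other 421 gCap cells (open). *Apln*, *Prnd*, *Pgf*, *Col15a1* and *Igfbp7* lie higher in the *Esm1* set, *Sema3c*, *Bmp6*, *Glp1r*, *Lpl* and *Cd74* lie lower, and *Gpihbp1*, *Cdh5* and *Plvap* lie close together.

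The *Fabp4* difference between libraries came from 3 cells. *Fabp4* (chr3:10204088-10208576), a fatty acid-binding protein of many capillary beds and of adipocytes, had 466 UMIs in gCap cells, of which 452 came from 3 cells with 106, 148 and 198 UMIs in the mural cell-enriched libraries of WT 1, WT 2 and *Tubb3*-/- 2. Those cells carried the required *Gpihbp1*, with 19, 10 and 21 UMIs, and *Cd36*, a fatty acid transporter, at 2064 against 2099.7 CPM in the other gCap cells. *Timp4*, an inhibitor of metalloproteinases, was at 983 against 5.66 CPM and *Cdh13*, the adiponectin receptor T-cadherin, at 1146 against 25.7 CPM.

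Several lung gCap genes were missing or low in these 3 cells. *Glp1r*, *Hpgd*, *Plvap*, *Tmem100*, *Adgrl3* and *Slco2a1* had 0 UMIs, which over 30530 UMIs puts *Hpgd* at least 29.7-fold, *Tmem100* at least 20.8-fold and *Plvap* at least 12.2-fold below the other gCap cells. *Bmp6* had 2 UMIs, *Sema3c* 1 and *Calcrl* 3. The one from WT 2 also had 207 *Acta2* UMIs among 18272. By these markers the gCap label is in doubt for the 3 cells, although they met the rule.

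A last set of 3 cells, all from WT 2, held 42 of the 44 *Slc6a2* UMIs. *Slc6a2*, the noradrenaline transporter, is a marker of lung venous ECs, and the venous genes *Vwf*, at 2522 against 212 CPM, *Car8*, at 368 against 3.38 CPM, and *Nr2f2*, at 263 against 25.2 CPM, were high in the same cells. *Glp1r* was at 315 against 363 CPM in them, from 6 UMIs in 2 of the 3 cells, and *Sema3c* at 1261 against 1806 CPM. *Gpihbp1* was at 841 against 1319 CPM, and *Bmp6* had 1 UMI. The gCap label is thus uncertain for these 3 cells as well. The limit of 10 UMIs used for this set and for the *Fabp4* set was chosen after the values were seen.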

How the data were processed

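The counts are UMIs by gene and cell as the authors deposited them for 8 libraries, from Cell Ranger 7.1.0 and the mm10 genome to which *Cre* had been added, demultiplexed by tag, with no normalization and no correction for free RNA. Tag counts were kept out of all gene totals. Libraries held 41462258 to 95036340 gene UMIs. Doublets were scored with Scrublet (scanpy 1.11.5) and kept. UMIs of gated cells were summed per mouse, or per library, and fitted by edgeR (version 4.0.16; R 4.3.3) with its quasi-likelihood test (low counts removed by filterByExpr, TMM scaling, Benjamini-Hochberg adjustment over all genes tested, threshold 0.05). CPM values are plain, without TMM. A positive log2 fold change means higher in *Tubb3*-/- mice, or in mural cell-enriched libraries. Shares were compared over the 4 mice with an exact permutation test. DESeq2 1.42.0 was an alternative. The fits were tested on simulated data. The mice are 2 per genotype, so p-values measure the spread between these mice only.

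The members, the 32 gene lists (492 genes outside the rule) and the comparison gates were chosen with earlier results of these data known. Genes were named by a rule: the markers, the 5 genes per direction with the smallest unadjusted p at a mean of 20 CPM or more and no overlap (none was called), the member of a list with the highest mean CPM, the 8 called library genes with the largest rise and fall at 20 CPM, and the 15 most overdispersed genes. List members at an unadjusted p under 0.05, genes compared between gates, and the 3 sets of cells at the end were chosen after their values were seen. Coordinates are from GENCODE vM21. A gene that the rule would name is not reported here.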

Additional observations from a re-analysis of the deposited data

Results flagged for a closer look

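The genotype change of *Hbb-bs*, a haemoglobin gene, differed between gCap and activated gCap cells by a log2 fold change of -5.34 (edgeR interaction term, adjusted p = 0.011), which drew attention as a difference between cell groups under the same contrast. The value comes from activated gCap cells of *Tubb3*-/- 1, at 921 CPM. In gCap cells *Hbb-bs* was at 11.2 to 33.6 CPM in all mice.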

How the results depend on the processing

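The counts of called genes moved most with the setting. Between genotypes the count of 0 became 46 with no filter on low counts, 1 with whole-cell libraries only, 1 with a *Gpihbp1* minimum of 1 UMI, and 12 to 105 with 1 mouse left out. For the difference from activated gCap cells the count of 1 became 16 with no filter, 0 with DESeq2, 11 in whole-cell libraries and 3 to 60 with 1 mouse left out, and for that from aCap cells 0 became 6, 2 (whole-cell libraries) and 0 to 56. Between libraries 195 became 329 with no filter, 85 with DESeq2, 101 without the mouse as a block and 56 to 222 with 1 mouse left out. The genotype shares turned to 1.79 (of ECs) and 2.73 (of the library) percentage points without the *Ntrk2* and *Lrg1* conditions. The cause was not tested.

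Of 83 genes followed across settings 25 changed sign in at least 1 of 15 settings, and 34 were called in at least 1. The log2 fold changes of opposite sign were, with a *Gpihbp1* minimum of 1 UMI, *C3* 0.24, *Calcrl* -0.029, *Vwf* -0.0431, *Acta2* -0.21, *Col3a1* 1.03, *Ptgis* 0.61, *Dcn* 0.87. In whole-cell libraries only they were *Vwf* -0.00069, *Acta2* -0.20, *Cxcl12* -0.038, *Mgp* -0.39, *Tuba1a* -0.076. With the gate on cells thinned to 2000 UMIs they were *Acta2* -0.66, *Lyz2* 0.81, *Mgp* -0.77, *Tyrobp* 0.38. Without the *Ntrk2* and *Lrg1* conditions they were *Acta2* -0.12, *Cd36* 0.14, *Ifitm3* 0.032, *Mgp* -0.30, *Stmn1* -0.0099, *Usp18* -0.17, *Pdgfd* -0.040. *Mgp* also changed sign with a *Gpihbp1* minimum of 3 UMIs (-0.021), at most 10% mitochondrial UMIs (-0.044) and Scrublet doublets left out (-0.064), and was called at 1.73 with a minimum of 1 UMI. With 1 mouse left out the ranges that cross 0 were *Glp1r* -0.46 to 0.13, *Vwf* -0.22 to 0.66, *Lyve1* -1.05 to 0.20, *Acta2* -0.75 to 0.77, *Col3a1* -0.30 to 0.13, *Lyz2* -0.32 to 0.035, *Tmem100* -0.33 to 0.080, *Notch1* -0.38 to 0.077, *Cxcl12* -0.26 to 0.43, *Ifitm3* -0.23 to 0.12, *B2m* -0.066 to 0.29, *Cd74* -0.75 to 1.84, *Hspa8* -0.059 to 0.33, *Mgp* -0.12 to 0.18, *Cldn5* -0.34 to 0.16, *Pdgfd* -0.064 to 1.12. Same-numbered mice share sex, by *Xist*, and no label ties them otherwise. With 2 pairs, the correlation of same-numbered deviations was 0.124 over 3855 genes, and the fit with the replicate block called 0 genes between genotypes. With 2 mice per genotype and 56 to 231 gCap cells each, the median SE of a log2 fold change was 0.30, so small differences could not be called. Large ones, such as *Depp1* at 1.59 and *Prnd* at 3.84, were not called either, so the count of 0 does not exclude large changes.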
